A study of Mus musculus with 24 samples.

Results

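The fatty acid desaturases and elongases of the kidney were followed at the RNA level in mice with an inducible deletion of Pex5 in tubule cells. The set holds 10 genes chosen by symbol, namely the desaturases Fads1, Fads2, Fads3, Scd1 and Scd2 and the elongases Elovl1, Elovl2, Elovl5, Elovl6 and Elovl7, out of 55335 genes listed in each file. All 10 passed the filter on low counts, as 16092 genes did. cKO mice carried Pex5 lox/lox with the Pax8-rtTA and LC1 transgenes, and Ctrl mice were Pex5 lox/lox littermates without those transgenes, all on a C57BL/6J background. Every mouse of the 4 groups, the controls included, had received doxycycline (DOX) for 2 weeks from 8 weeks of age, and the kidneys were collected 4 weeks after DOX was stopped. Males are named Ctrlm and cKOm and females Ctrlf and cKOf, with 6 kidneys per group, numbered as in the labels. Pax8-rtTA drives the deletion in tubule cells, whereas the RNA came from whole kidney and thus also from cells in which no deletion is induced. In such bulk samples, fewer cells of a type and less RNA per cell cannot be told apart.

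PEX5 is the receptor that brings most matrix proteins into peroxisomes. Desaturases place double bonds in acyl-CoA chains in the endoplasmic reticulum, with electrons that cytochrome b5 delivers, and elongases carry out the first and rate-limiting step of the cycle that adds carbon from malonyl-CoA. FADS2, ELOVL5, FADS1 and ELOVL2 act on the essential fatty acids, and after the last elongation FADS2 acts again before peroxisomal beta-oxidation shortens the product to docosahexaenoic acid (DHA). SCD1, SCD2 and ELOVL6 work on palmitate and stearate to give monounsaturated fatty acids, and ELOVL1 and ELOVL7 make very long and long saturated chains.

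A kidney yielded 19376152 to 28470831 reads assigned to genes (median 21592602), of which each member took from 251 to 42869, far above the floor of 3 counts. Levels are given as CPM (the reads of a gene relative to the library total) scaled by the TMM method, and differences as log2 fold changes with their standard errors (SE) and Benjamini-Hochberg adjusted p values of edgeR's quasi-likelihood test, adjusted over all genes, for which the threshold was 0.05. Pex5, whose counts include exons outside the deleted part and all cells of the kidney, ranged from 49.1 to 62.8 CPM in Ctrlm and from 41.8 to 47.3 CPM in cKOm, with no overlap (log2 fold change -0.31, SE 0.08, edgeR adjusted p = 0.0219). The call on Pex5 in males was lost without Ctrlm 2 (-0.27, edgeR adjusted p = 0.0656), without cKOm 4 (-0.30, 0.0504), with hepatocyte markers as a covariate (-0.28, 0.161) and without the kidneys rich in hepatocyte markers, Ctrlm 1 to 4 and cKOm 4 (-0.26, 0.382). In females the ranges were 43.0 to 61.7 CPM in Ctrlf and 38.0 to 48.5 CPM in cKOf (-0.21, SE 0.08, edgeR adjusted p = 0.177). The paper found almost no PEX5 protein in cKOm kidneys, whereas a reduced amount remained in cKOf. Its own measure of Pex5 mRNA was significantly reduced in both sexes, but it found residual full-length Pex5 mRNA in cKOf and proposes incomplete excision there. By electron microscopy it saw almost no peroxisomes in proximal tubules of either cKO sex. It does not exclude that peroxisomes have functions that differ between the sexes.

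Some kidneys stood apart by transcripts of other tissues. The sum of 12 hepatocyte markers (Alb, Ttr, Fga and others) was 527 to 1004 CPM in Ctrlm 1 to 4 and 567 CPM in cKOm 4, and at most 199.8 CPM in the other 19 kidneys. Alb was the largest part of the sum in these kidneys, with 224 to 662 CPM in Ctrlm 1 to 4 and 235 CPM in cKOm 4. Ttr did not set them apart, with 42.1 CPM in Ctrlm 3 and 86.5 CPM in Ctrlm 5. All 12 markers passed the filter, and Ahsg was at 0 in 1 kidney and Apoh in 2, while the other 10 were counted in every kidney. In males 3 of the 12 fell, where 4.9% of all genes fell. Serpina1a went the other way and rose, from 9.84 to 37.8 CPM in Ctrlm to 43.3 to 61.7 CPM in cKOm. The sum of 10 adipocyte markers was highest in Ctrlf 6, with 560.4 CPM, against 36.6 to 229 CPM in the other 23 kidneys, and Adipoq was at 0 in 4 kidneys and Lep in 15. Adrenal cortex markers summed to at most 3.23 CPM. The 8 proximal tubule markers looked up for the kidney label were counted in every kidney. Their sum was lower in cKOm (7716 to 8486 CPM) than in Ctrlm (9208 to 10340 CPM), without overlap, and 4 of the 8 (Lrp2, Slc34a1, Slc22a6 and Aqp1) fell in males, where 4.9% of all genes fell. The paper already names these 4 as reduced in the same data. The list was chosen with earlier results known, so the count is no independent evidence. Lrp2 and Slc34a1 made up most of the sum, and Slc5a12 of the same list was higher in every cKOm kidney without passing (0.63, edgeR adjusted p = 0.0512). Of 9 markers of other nephron segments, Slc12a1 and Atp6v1b1 rose in males (0.33 and 0.30, edgeR adjusted p = 0.0116 and 0.0136), where 4.14% of all genes rose, and none fell. Slc12a1 is likewise named as raised in the paper. The part of these transcripts in the results was not tested, other than by leaving kidneys out and by covariates.

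**Figure D1:**
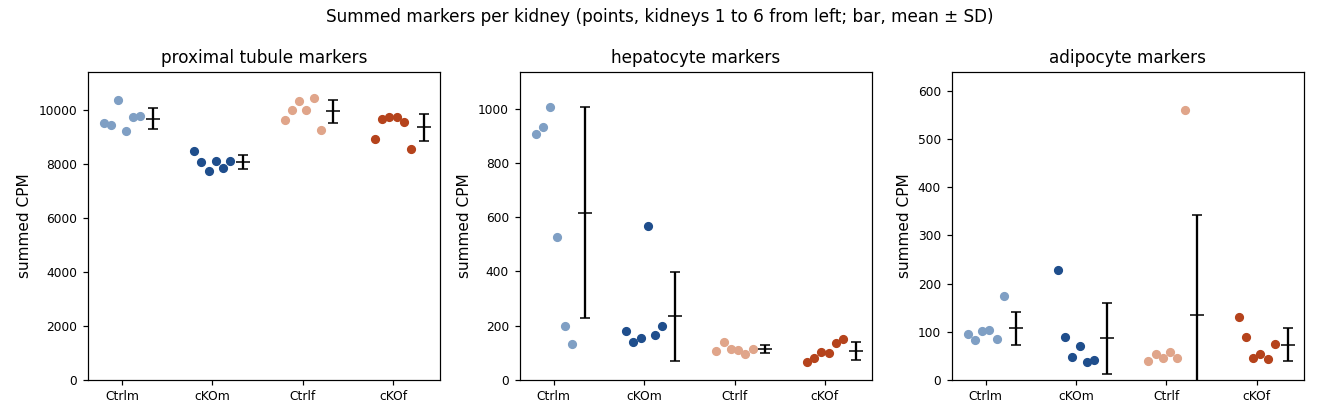
Summed CPM (TMM-scaled) of markers of the proximal tubule, of hepatocytes and of adipocytes in each kidney by group, with points for kidneys 1 to 6 from left to right and bars for the mean ± SD. Ctrlm 1 to 4 and cKOm 4 lie apart for hepatocyte markers and Ctrlf 6 for adipocyte markers, while the proximal tubule sums of cKOm all lie under those of Ctrlm.

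All 3 Fads genes and both Scd genes lie on chromosome 19 of GRCm38. Fads3 (10041569 to 10060110, plus strand) is separated by 2654 bases from Fads2 (10062765 to 10101746, minus strand), which is 81141 bases from Fads1 (10182888 to 10196877, plus strand), so that Fads1 and Fads2 are transcribed away from each other. Scd2 (44293674 to 44306864, plus strand) and Scd1 (44394455 to 44407879, minus strand) are 87590 bases apart. The elongases are dispersed, with Elovl1 on chromosome 4 (118428093 to 118432953), Elovl2 and Elovl7 on chromosome 13 (41182381 to 41220405 and 108214404 to 108285683), Elovl5 on chromosome 9 (77917364 to 77984519) and Elovl6 on chromosome 3 (129532355 to 129638495). All 10 are protein-coding and were counted over their exons. Of the 50-base windows of their transcripts, 4.66% of Scd1 and 4.01% of Scd2 were also found in another gene, mostly in each other and in Scd3 and Scd4. For Elovl6 the share was 4.59%, and for the other members at most 0.227%. Reads without a unique alignment were among the uncounted lines, so such windows may be underrepresented in the counts.

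The promoters of 3 members are shown because they stand for a gene that rose in cKOm (Elovl6), a gene that fell (Fads3) and the one member with an E-box match (Elovl5, which passed in neither sex). The sequences run from 250 bases before to 50 bases after the RefSeq start (GRCm38.p6, all on the plus strand), and capitals mark matches on either strand to the E-box or the CCAAT box.
Elovl6, chr3:129532136-129532435: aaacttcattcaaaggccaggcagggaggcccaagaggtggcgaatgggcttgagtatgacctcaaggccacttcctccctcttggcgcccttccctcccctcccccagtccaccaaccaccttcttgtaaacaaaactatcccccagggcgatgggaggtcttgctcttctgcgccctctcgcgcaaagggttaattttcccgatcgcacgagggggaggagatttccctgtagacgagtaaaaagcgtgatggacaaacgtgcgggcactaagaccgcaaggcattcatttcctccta
Fads3, chr19:10041298-10041597: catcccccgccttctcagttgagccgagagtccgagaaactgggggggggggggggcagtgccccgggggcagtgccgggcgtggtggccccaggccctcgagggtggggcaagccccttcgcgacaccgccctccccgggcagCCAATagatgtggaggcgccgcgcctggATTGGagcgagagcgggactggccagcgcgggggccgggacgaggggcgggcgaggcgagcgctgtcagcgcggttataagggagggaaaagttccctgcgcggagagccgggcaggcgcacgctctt
Elovl5, chr9:77917115-77917414: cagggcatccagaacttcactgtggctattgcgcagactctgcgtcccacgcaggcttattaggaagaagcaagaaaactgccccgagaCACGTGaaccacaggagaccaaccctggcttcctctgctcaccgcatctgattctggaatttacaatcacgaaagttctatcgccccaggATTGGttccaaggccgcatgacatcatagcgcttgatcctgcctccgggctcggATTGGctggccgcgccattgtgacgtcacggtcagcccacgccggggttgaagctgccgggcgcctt
Promoters of 7 of the 10 members were matched, 9 promoters in all, since Elovl1 and Elovl2 had more than one, and the promoters of Fads1, Scd1 and Scd2 were not analysed here. The sterol response element TCACNCCAC, the site of SREBP factors in its classical form, was in none of the 9 and in 1.24% of 32851 promoters of the same length. The E-box CACGTG was found in Elovl5 alone, 161 bases before the start, against 7.15% of all promoters. A CCAAT box was in 1 promoter each of Elovl1, Elovl5 and Fads3, against 37.4%, and the GC box GGGCGG in 6 of the 9, against 35.7%. Each was searched on both strands, matches did not overlap in the promoters shown, and a match is a description of letters.

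In males, 5 of the 10 genes differed between genotypes, with 4 higher in cKOm (Fads1, Scd1, Scd2, Elovl6) and 1 lower (Fads3). Of all genes tested, 9.05% passed the same threshold, 4.14% upward and 4.9% downward. For Fads1 and Elovl6 every cKOm kidney was higher than every Ctrlm kidney and for Fads3 lower, as for 3.69% of all genes in each direction. In females none of the 10 passed in edgeR, against 0.851% of all genes. At an unadjusted p under 0.05, 1 member (Fads1) differed in females, and after adjustment limma-voom called 0 and DESeq2 called 1. The median log2 fold change of the members was 0.34 in males, beside 0.01 over all genes tested, and -0.07 in females, beside 0.00.

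**Figure D2:**
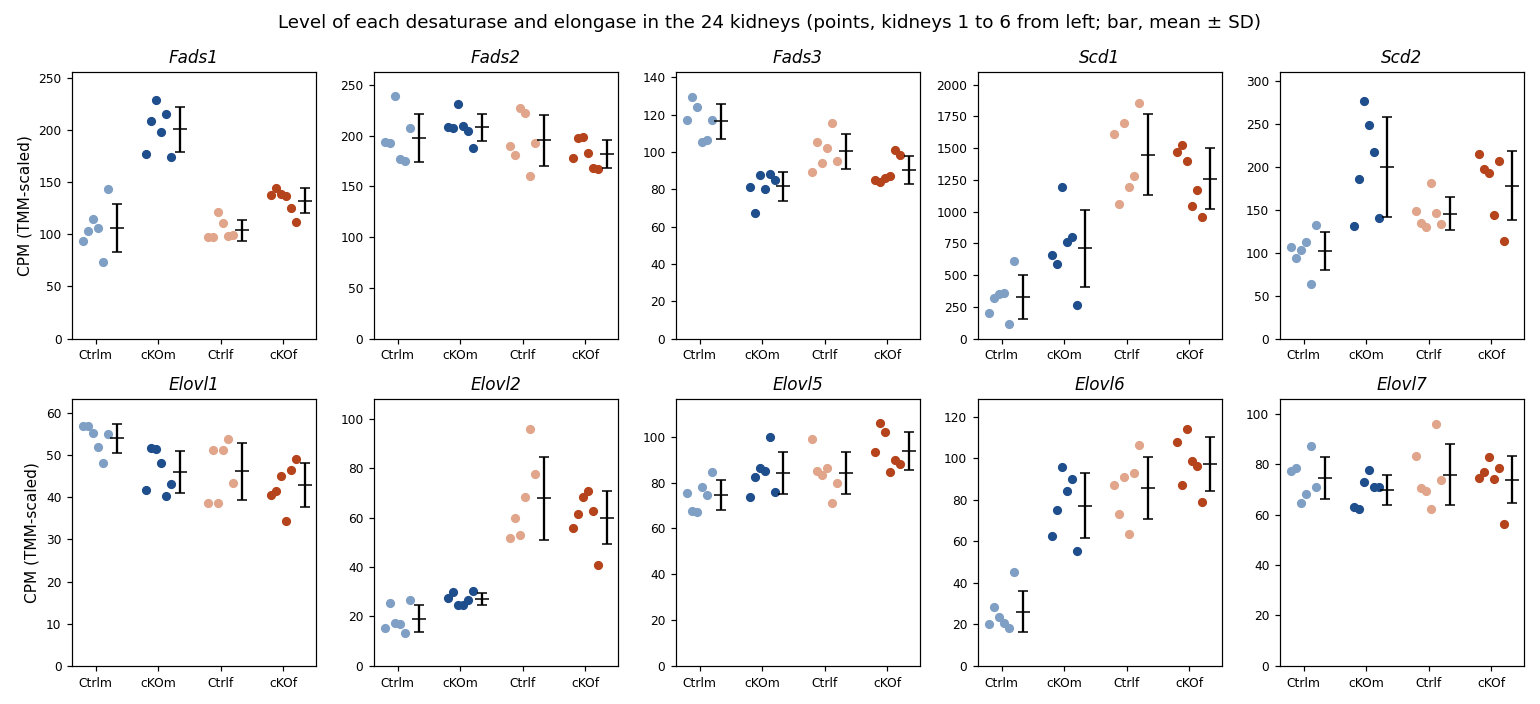
Level of each of the 10 genes in CPM (TMM-scaled) in the 24 kidneys by group, with points for kidneys 1 to 6 from left to right and bars for the mean ± SD. Fads1 and Elovl6 are higher in every cKOm than in every Ctrlm kidney, Fads3 is lower, and Scd1, Elovl2 and Elovl6 are higher in every Ctrlf than in every Ctrlm kidney.

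Fads1 and Fads2 encode the desaturases on the way from essential fatty acids to arachidonic acid and DHA. Fads1 measured 73.7 CPM in the lowest, 104.7 in the median and 143 in the highest Ctrlm kidney, and 174, 204 and 229 CPM in cKOm. Each cKOm kidney lay above each Ctrlm kidney. The gene rose 1.93-fold in geometric mean (log2 fold change 0.92, SE 0.11, edgeR adjusted p = 2.4e-06). In Ctrlf it measured 97.0, 98.9 and 121 CPM and in cKOf 112, 137 and 145 CPM. Of the cKOf kidneys, 5 lay above all Ctrlf kidneys, but the difference did not pass the threshold (0.35, SE 0.11, edgeR adjusted p = 0.0687). DESeq2 placed it under the threshold (adjusted p = 0.0344), as did edgeR without Ctrlf 3 (0.0425), without cKOf 6 (0.0349) or with each sex fitted alone (0.0232). The 12 alternative fits other than those without 1 kidney gave 0.33 to 0.35, with an adjusted p of up to 0.341.

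For Fads2 the lowest, median and highest levels were 175, 193 and 239 CPM in Ctrlm and 188, 208 and 231 CPM in cKOm. The cKOm values lay within the span of the controls in all 6 kidneys, and in females the groups also overlapped, from 160.1 to 227 CPM in Ctrlf and from 167 to 199 CPM in cKOf. Its log2 fold change was 0.08 (SE 0.09, edgeR adjusted p = 0.756) in males and -0.10 (SE 0.09, edgeR adjusted p = 0.649) in females. FADS2 is generally regarded as the rate-limiting enzyme of this route.

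Fads3 encodes a relative of these enzymes that acts on sphingoid bases. It measured 106, 117 and 129 CPM in the lowest, median and highest Ctrlm kidney and 67.4, 83.2 and 88.1 CPM in cKOm. Every cKOm kidney was below every Ctrlm kidney, the reverse of Fads1 on the same chromosome. The gene fell by 0.51 on the log2 scale (SE 0.08, edgeR adjusted p = 9.1e-05). In females the ranges were 89.5 to 116 CPM in Ctrlf and 83.7 to 101 CPM in cKOf, with 4 cKOf kidneys below all controls (-0.15, SE 0.08, edgeR adjusted p = 0.356). Whether this fall goes with the lower sum of proximal tubule markers in cKOm kidneys, given above, was not tested.

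Scd1, the stearoyl-CoA desaturase that makes oleate and palmitoleate, had the widest spread of the set in CPM, and relative to its mean in the male groups (coefficient of variation 52.2% in Ctrlm and 42.5% in cKOm). Ctrlm kidneys measured 115, 338 and 614 CPM (lowest, median, highest) and cKOm kidneys 266, 710.3 and 1193 CPM. In 4 of 6 cKOm kidneys the level was above all controls, with Ctrlm 6 at the top of its group and cKOm 6 at the bottom of its own. The difference in males was 1.12 on the log2 scale (SE 0.29, edgeR adjusted p = 0.0181). It did not pass without Ctrlm 1 (1.01, edgeR adjusted p = 0.0535), without cKOm 3 (0.91, 0.0706), with each sex fitted alone (1.10, 0.0755) or with hepatocyte markers as a covariate (0.94, 0.146). Females measured 1060, 1445 and 1858 CPM in Ctrlf and 955, 1281 and 1524 CPM in cKOf. These groups overlapped (-0.20, SE 0.28, edgeR adjusted p = 0.812).

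Scd2, a close homologue best known from brain and from development, measured 64.0, 104.4 and 132 CPM in Ctrlm and 131, 201 and 277 CPM in cKOm. All but 1 of the cKOm kidneys lay above all controls, and the lowest, cKOm 1, lay just under Ctrlm 6. Scd2 rose in males (0.97, SE 0.18, edgeR adjusted p = 6.8e-04). In females it ranged from 129.7 to 181 CPM in Ctrlf and from 113 to 214 CPM in cKOf, with overlap (0.29, SE 0.18, edgeR adjusted p = 0.456). The remaining Scd genes were scarce, with at most 0.342 CPM of Scd3 and 1.22 CPM of Scd4 in any kidney.

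Elovl6, which elongates palmitate to stearate, had the largest log2 fold change of the 10 in males. It measured 18.3, 22.2 and 45.4 CPM in the lowest, median and highest Ctrlm kidney and 55.3, 79.7 and 95.6 CPM in cKOm. There was no overlap, although Ctrlm 6 stood well above the other controls, of which the next measured 28.5 CPM. Elovl6 rose 3.05-fold in geometric mean (1.56, SE 0.18, edgeR adjusted p = 1.1e-06). In females it measured 63.7, 89.1 and 106 CPM in Ctrlf and 79.0, 97.6 and 114 CPM in cKOf, with 2 cKOf kidneys above all controls. The difference there was 0.18 (SE 0.17, edgeR adjusted p = 0.687).

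Elovl2 and Elovl5 elongate polyunsaturated chains, ELOVL2 the longest of them. Elovl2 measured 13.1, 17.2 and 26.5 CPM in Ctrlm and 24.5, 26.9 and 30.2 CPM in cKOm. Of the cKOm kidneys, 3 exceeded all controls and all 6 exceeded the control median, but the difference missed the threshold (0.50, SE 0.16, edgeR adjusted p = 0.0811). It passed in DESeq2 (adjusted p = 0.0489) and in edgeR without Ctrlm 2 (0.0354), without Ctrlm 6 (0.0358) or with p values adjusted within each sex (0.0451). The 12 alternative fits other than those without 1 kidney gave 0.40 to 0.59 in males, with an adjusted p of up to 0.46. In females Elovl2 ranged from 51.9 to 95.9 CPM in Ctrlf and from 40.9 to 70.7 CPM in cKOf (-0.18, SE 0.16, edgeR adjusted p = 0.673). Elovl5 lay between 67.0 and 84.8 CPM in Ctrlm and between 73.9 and 99.8 CPM in cKOm, and in females between 71.3 and 98.9 CPM in Ctrlf and between 84.7 and 106 CPM in cKOf. Its differences of 0.17 in males and 0.16 in females (SE 0.09 each) gave edgeR adjusted p values of 0.333 and 0.382.

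Elovl1, which makes very long saturated chains for sphingolipids, lay between 48.1 and 57.0 CPM in Ctrlm and between 40.4 and 51.6 CPM in cKOm (-0.23, SE 0.10, edgeR adjusted p = 0.208). The female ranges were 38.7 to 53.9 CPM in Ctrlf and 34.5 to 49.1 CPM in cKOf. Elovl7 lay between 56.1 and 96.0 CPM over all 24 kidneys, and the genotypes differed by -0.10 in males and -0.04 in females (SE 0.10 each, edgeR adjusted p = 0.723 and 0.908). These 2 genes changed past the threshold in neither sex.

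**Figure D3:**
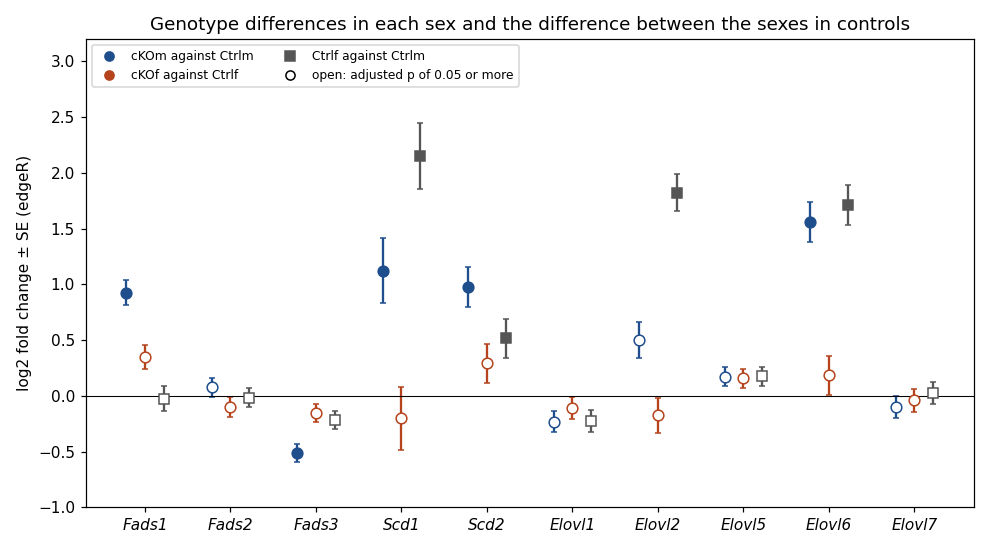
Log2 fold changes with standard errors (edgeR) for cKOm against Ctrlm (blue), cKOf against Ctrlf (red) and Ctrlf against Ctrlm (grey squares), with filled symbols for an adjusted p under 0.05. Filled blue points mark Fads1, Scd1, Scd2, Elovl6 and Fads3, no red point is filled, and filled squares mark Scd1, Scd2, Elovl2 and Elovl6.

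The genotype effect was tested for a difference between the sexes in the same model. It differed for 2 of the 10 genes, Elovl6 and Fads1, both with the higher value in males, where 2.31% of all genes passed, 0.82% with the higher and 1.49% with the lower value in males. The male log2 fold change of Elovl6 exceeded the female one by 1.38 (SE 0.25, edgeR adjusted p = 0.00135), and that of Fads1 by 0.58 (SE 0.16, edgeR adjusted p = 0.0469). The Fads1 call was lost in 21 of the 24 fits that left out 1 kidney, with an adjusted p of up to 0.0963. For Scd1 the difference between the sexes was 1.32 (SE 0.40) and for Fads3 -0.36 (SE 0.11), both short of the threshold (edgeR adjusted p = 0.0879 and 0.0972). Scd2 and Elovl2 differed by 0.68 each (SE 0.25 and 0.23), with adjusted p values of 0.184 and 0.139. A difference in response between the sexes and the incomplete excision that the paper proposes for cKOf cannot be told apart here.

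When the kidneys with more than 2 times the median of hepatocyte markers were left out (Ctrlm 1 to 4 and cKOm 4), only 2 Ctrlm kidneys remained. In that fit 3 members passed in males, Fads1 (0.86, adjusted p = 0.00854), Elovl6 (1.22, 0.0143) and Fads3 (-0.48, 0.0299), while Scd1 (0.92, 0.403) and Scd2 (0.92, 0.108) did not and no difference between the sexes passed (Elovl6 1.04, 0.105). Leaving out Ctrlm 6, cKOm 1 and Ctrlf 6, which had more than 2 times the median of adipocyte markers, kept the same 5 male calls. The male log2 fold changes were then 1.81 for Elovl6, 1.40 for Scd1, 1.13 for Scd2, 1.04 for Fads1 and -0.54 for Fads3.

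Control kidneys of the sexes were compared next, with the reservation that this comparison shares the Ctrlm kidneys with the male one. Of the 10 genes, 4 were higher in Ctrlf than in Ctrlm and none was lower in edgeR, where 16.8% of all genes differed, 8.11% higher and 8.71% lower. Scd1 was 4.93-fold higher in geometric mean (2.15, SE 0.30, edgeR adjusted p = 4.3e-06), Elovl2 3.57-fold (1.82, SE 0.17, edgeR adjusted p = 3.6e-09) and Elovl6 3.40-fold (1.71, SE 0.18, edgeR adjusted p = 3.8e-08), and in all 3 every Ctrlf kidney lay above every Ctrlm kidney, as for 3.4% of all genes. Scd2 was higher by 0.51 (SE 0.18, edgeR adjusted p = 0.0439), with 5 Ctrlf kidneys above the Ctrlm range, and its call was lost in 9 of the 12 fits that left out 1 control kidney (adjusted p up to 0.119). It was also lost with RLE normalization (edgeR adjusted p = 0.051), the replicate block (0.0727), the hepatocyte (0.318) or adipocyte (0.0694) marker covariate, or without the kidneys rich in hepatocyte markers (0.236). Of the 12 hepatocyte markers, 11 were lower in Ctrlf, where 8.71% of all genes were, and their part here was not tested. Fads3 was short of the threshold in edgeR (-0.22, SE 0.08, adjusted p = 0.0617), but was lower in Ctrlf with DESeq2 (-0.24, adjusted p = 0.0267), with RLE normalization (0.0395), with the filter on 6 kidneys (0.0486), with adipocyte markers as a covariate (0.0454) and in edgeR without Ctrlm 4 (0.0442), Ctrlm 5 (0.0452) or Ctrlf 5 (0.0134). For Fads3 the 10 alternative fits other than those without 1 kidney gave -0.24 to -0.11, with an adjusted p of up to 0.678. Fads1 and Fads2 did not pass between the control sexes (edgeR adjusted p = 0.924 and 0.937). Set side by side without a test, the cKOm levels of Elovl6 (55.3 to 95.6 CPM) overlapped those of Ctrlf (63.7 to 106 CPM), those of Scd1 (266 to 1193 CPM) mostly lay under them (1060 to 1858 CPM), those of Elovl2 (24.5 to 30.2 CPM) were below all of them (51.9 to 95.9 CPM), and those of Fads1 (174 to 229 CPM) were above all of them (97.0 to 121 CPM).

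Per kb of merged exon length, Scd1 had the highest mean level in each group, at 66.8 ± 34.9 CPM per kb in Ctrlm and 145 ± 61.8 in cKOm (mean ± SD, n = 6), and 296 ± 64.9 and 258 ± 48.4 in Ctrlf and cKOf. Fads2 came next in each group, at 55.3 to 63.2 CPM per kb, and its range overlapped that of Scd1 in the male groups but not in the female ones. In Ctrlm the order went on with Fads3 (30.8), Fads1 (21.97), Elovl5 (21.2), Elovl1 (19.8), Scd2 (18.6) and Elovl7 (18.6), whose neighbours overlapped, and ended with Elovl2 (4.83) and Elovl6 (4.07), which overlapped each other and lay apart from the rest. In cKOm, Fads1 (41.7) and Scd2 (36.6) stood at the third and the fourth place, Fads3 (21.6) at the sixth, and Elovl6 (12.0) was above Elovl2 (6.86) without overlap. The highest and the lowest member in Ctrlm were 16.4-fold apart.

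Within groups the members varied together to a very different degree. After the mean of each group was taken off, the 45 pairs of members had a median Pearson's r of 0.237 across the 24 kidneys, from -0.367 to 0.818. The points share their libraries and the scaling, and r is given as a description. Above 0.6 were 6 pairs, namely Fads1 with Scd1 (0.818), Scd1 with Elovl6 (0.795), Fads1 with Scd2 (0.704), Fads1 with Elovl6, Scd1 with Scd2 (0.683) and Fads1 with Fads2 (0.645). Of these pairs, 5 joined genes that rose in cKOm. Ctrlm 5 was the lowest Ctrlm kidney for all 4, Ctrlm 6 the highest, cKOm 3 the highest cKOm kidney for all 4, and cKOf 6 the lowest cKOf kidney. Among 14072 genes, the 3 most like Fads1 were Nsdhl, an enzyme of cholesterol synthesis (0.927), Rnft2 (0.859) and Zkscan5 (0.819). For Scd1 they were Fads1, Elovl6 and Lss, the lanosterol synthase (0.764), and for Elovl6 they were Scd1, the acyl-CoA synthetase gene Acsl1 (0.793) and Gpam, which starts glycerolipid synthesis (0.783). For Scd2 they were Dock8 (0.782), Rnft2 (0.772) and Abr (0.742). The nearest gene was Numa1 for Fads2 (0.808), Gprc5c for Fads3 (0.78) and Slc39a11 for Elovl1 (0.81). It was Gpr63 for Elovl2 (0.793), Syk for Elovl5 (0.762) and Slc35e3 for Elovl7 (0.871). No member had an r beyond -0.321 or 0.315 with the summed hepatocyte or adipocyte markers.

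**Figure D4:**
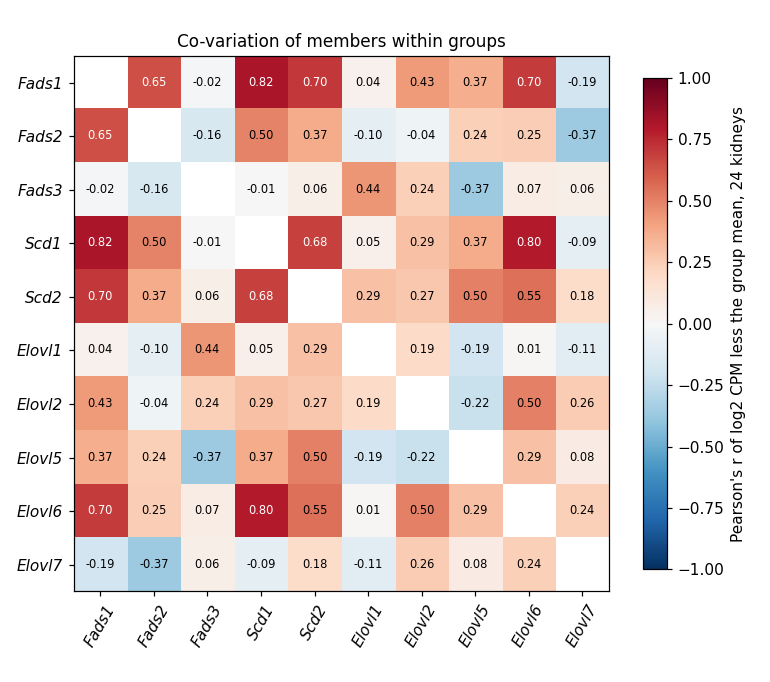
Pearson's r between members over the 24 kidneys, computed on log2 CPM after the mean of each group was taken off, with red for positive and blue for negative values. Fads1, Scd1, Scd2 and Elovl6 form the block of high values, with r of 0.818 between Fads1 and Scd1, while r of Fads3, Elovl1 and Elovl7 with these 4 lies between -0.188 and 0.294.

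Other genes of the pathway came from lists written by function. Of 7 further desaturases and elongases 5 passed the filter, and 1 fell in males, where 4.9% of all genes fell. Degs2, the sphingolipid desaturase and hydroxylase that makes phytoceramide, ranged from 26.7 to 47.6 CPM in Ctrlm and from 8.19 to 15.6 CPM in cKOm (-1.57, SE 0.19, edgeR adjusted p = 1.9e-06). In females it ranged from 4.29 to 8.93 CPM in Ctrlf and from 5.19 to 8.77 CPM in cKOf, and the difference between the sexes passed (-1.60, edgeR adjusted p = 6.8e-04). The 4 others tested, Degs1, Fads6, Elovl4 and Scd4, passed in neither sex.

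Of 9 partners of the elongation and desaturation cycle, 8 were tested. In males 2 fell, where 4.9% of all genes fell, and none passed the threshold in females. Cyb5a, the cytochrome b5 that supplies electrons to desaturases, ranged from 595 to 1061 CPM in Ctrlm and from 415 to 490 CPM in cKOm, without overlap (-0.93, SE 0.10, edgeR adjusted p = 8.3e-07). In Ctrlf and cKOf it ranged from 318 to 396 CPM and from 319 to 469 CPM, and the difference between the sexes passed (-0.95, edgeR adjusted p = 2.7e-04). Hacd2, a dehydratase of the cycle, fell by 0.62 in males (SE 0.11, edgeR adjusted p = 4.9e-04). The elongation enzymes Hsd17b12 and Tecr differed by 0.15 and 0.20 in males, short of the threshold (edgeR adjusted p = 0.251 and 0.402). In females Hsd17b12 ranged from 63.7 to 72.1 CPM in Ctrlf and from 72.7 to 79.9 CPM in cKOf. That difference also missed the threshold (0.19, SE 0.07, edgeR adjusted p = 0.104). The share of all genes with such separate ranges in females is not reported here.

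Of 7 genes that supply malonyl-CoA and palmitate, 2 fell in males, where 4.9% of all genes fell, and none passed the threshold in females. Acss2, which activates acetate, ranged from 266 to 330 CPM in Ctrlm and from 163 to 187 CPM in cKOm (-0.73, SE 0.06, edgeR adjusted p = 1.7e-08), and Me1, a source of NADPH, fell by 0.73 as well (SE 0.08, edgeR adjusted p = 8.6e-07). For both, the male change was lower than the female one (-0.58 and -0.74, edgeR adjusted p = 0.000285 and 0.000305). The other 5, Slc25a1, Acly, Acaca, Acacb and Fasn, did not pass. Fasn, the fatty acid synthase, ranged from 32.1 to 205 CPM in Ctrlm and from 92.7 to 169 CPM in cKOm, with overlap (0.65, SE 0.37, edgeR adjusted p = 0.414).

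Of 13 regulators of lipogenesis, 3 rose and 2 fell in males, where 4.14% of all genes rose and 4.9% fell. In females 1 rose, where 0.391% of all genes rose. Insig1, an SREBP target that retains SREBP in the endoplasmic reticulum, rose in both sexes, from a median of 42.4 to 88.6 CPM in males (0.95, SE 0.18, edgeR adjusted p = 0.00116) and from 35.2 to 58.9 CPM in females (0.81, SE 0.18, edgeR adjusted p = 0.00535). Srebf2 rose by 0.32 and Mbtps1, the site-1 protease, by 0.21 in males (edgeR adjusted p = 0.0348 and 0.0393), and both calls were lost in 9 of 12 fits that left out 1 male kidney. Mlxipl and Mlx, the pair that forms the glucose-responsive ChREBP complex, fell by 0.40 and 0.36 (edgeR adjusted p = 0.00804 and 0.0112), and with hepatocyte markers as a covariate neither passed (-0.30 and -0.31, adjusted p = 0.143 and 0.116). Srebf1, which encodes the SREBP form best known for lipogenic genes, differed by 0.39 (SE 0.14, edgeR adjusted p = 0.135).

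Of 9 genes for the peroxisomal steps that lead to DHA, 4 rose in males (Acaa1b, Ehhadh, Abcd3 and Hsd17b4), where 4.14% of all genes rose. The paper already names these 4 as changed in the same data. In females 3 rose, where 0.391% of all genes rose, and none fell in either sex. The thiolase gene Acaa1b rose by 1.23 in males and 1.14 in females (SE 0.15 each, edgeR adjusted p = 2.4e-06 and 8.4e-06), and the bifunctional enzyme gene Ehhadh by 0.75 and 0.54 (SE 0.12 and 0.11, edgeR adjusted p = 7.9e-05 and 0.00368). Abcd3, which encodes a peroxisomal acyl-CoA transporter, rose by 0.50 and 0.42 (SE 0.08 each, edgeR adjusted p = 2.1e-04 and 0.00146). Hsd17b4, the other bifunctional enzyme, rose by 0.27 in males (edgeR adjusted p = 0.0306), a call lost in 7 of 12 fits without 1 male kidney. Abcd2, Acaa1a and Scp2 passed in neither sex. For none of the 9 did the difference between the sexes pass, whereas it did for Elovl6 and Fads1 among the desaturases and elongases, and the contrast between these sets was not tested. Without the hepatocyte-rich kidneys, Degs2, Cyb5a, Hacd2, Acss2, Me1, Ehhadh and Acaa1b still passed in males, whereas Insig1 (0.90, edgeR adjusted p = 0.123), Abcd3 (0.45, 0.0779), Srebf2 (0.32, 0.344), Mbtps1 (0.20, 0.379), Mlxipl (-0.36, 0.201), Mlx (-0.37, 0.18) and Hsd17b4 (0.13, 0.674) did not. Of these log2 fold changes, that of Hsd17b4 moved by more than 1.5 times.

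**Figure D5:**
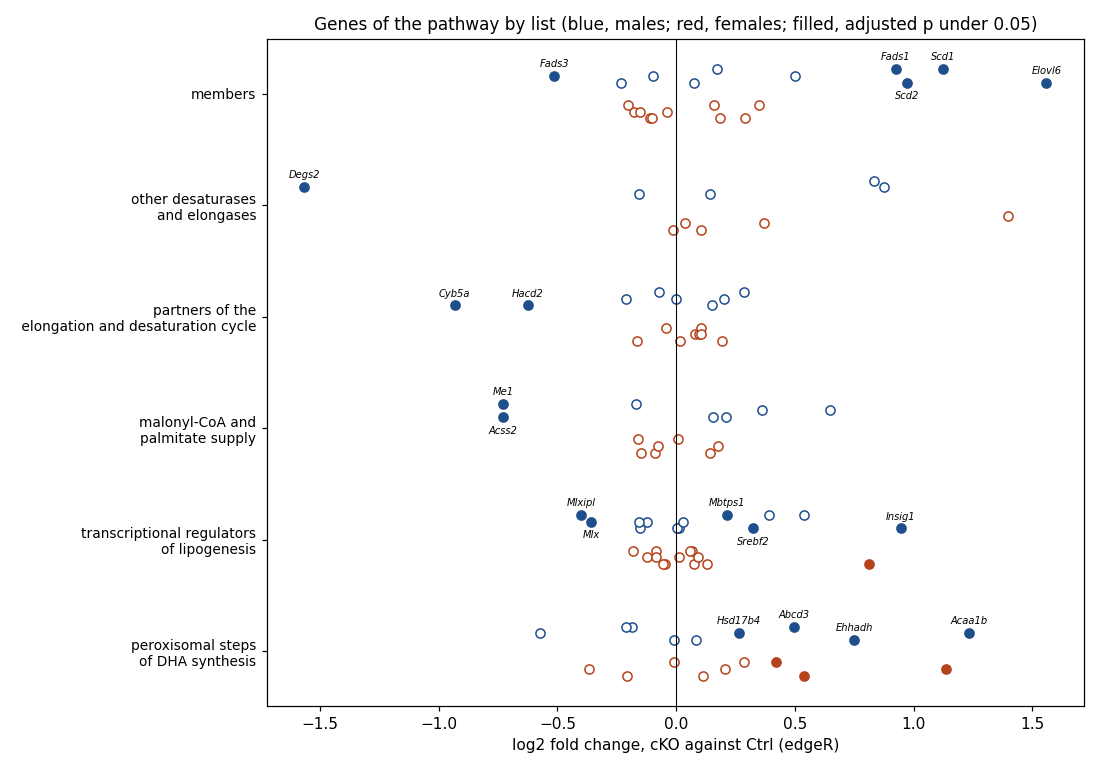
Log2 fold changes of cKO against Ctrl (edgeR) for the tested genes of each list, with males in blue, females in red and filled points for an adjusted p under 0.05; gene names are given for those that passed in males. Among the members 4 filled points lie above 0 and 1 below in males, whereas the filled points of the partners and of the malonyl-CoA list lie below 0.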

How the data were processed

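Whole-kidney RNA of 24 mice was measured by stranded mRNA sequencing. Per the labels 500 ng of RNA entered each library, and their protocols name both ZT3 and ZT9 as the time of collection. The authors deposited 1 file of raw read counts per gene for each kidney, without normalization. The submitters' processing notes name cutadapt 1.8, STAR 2.5.3a, HTSeq 0.9.1 and GRCm38. Lines for uncounted reads (34 to 41.5% of a library) were set aside.

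Counts were fitted in R 4.3.3 with edgeR 4.0.16 (TMM, quasi-likelihood, 1 model of 4 groups) for the 16092 genes that reached 1 CPM in 1 kidney or more. The Benjamini-Hochberg adjustment took the tests of both sexes as 1 family and each other contrast as its own. CPM on the log2 scale for co-variation used a prior count of 2. Kidneys of a group differed beyond sampling noise (chi-square per degree of freedom 9.83 to 99.2 over 60 pairs). The labels number the kidneys but pair none across groups. The procedure was tested on simulated data: of 200 genes changed by 1 on the log2 scale, 161 were recovered in the male and 168 in the female comparison among 16092 genes, with 5 false calls each.

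Genes and positions came from the GENCODE annotation of GRCm38, lengths from merged exons, promoters from RefSeq. All 10 members are named, other listed genes if they passed in a sex and otherwise as counts, and the 3 genes most like a member. A few others (Fasn, Srebf1, Hsd17b12, Tecr, Scd3 and genes of the lists that did not pass) were named after their values were seen. Some listed genes are not reported here by name, although the counts include them. The members and lists were chosen with earlier results of these data known. Alternatives were limma-voom (limma 3.58.1), DESeq2 1.42.0, other scaling, filters and adjustment, marker covariates, a replicate block and leaving out kidneys. Figures were made with matplotlib 3.10.9.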

Additional observations from a re-analysis of the deposited data

Results flagged for a closer look

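Of 60 sets of 6 values (10 members, Pex5 and 4 marker sums in 4 groups), 9 held a kidney whose gap to the next took more than 0.625 of the group's range, Dixon's critical value for 6, which chance gives in about 1 of 20 sets. Among the members these were cKOm 2 as the lowest for Fads3 (0.632), Ctrlf 4 as the highest for Scd2 (0.625, above the critical value only beyond the third decimal) and cKOf 6 as the lowest for Elovl7 (0.67). The other 6 were marker sums, with adipocyte markers highest in Ctrlm 6 (0.764), cKOm 1 (0.726) and Ctrlf 6 (0.966), hepatocyte markers highest in cKOm 4 (0.868), and immune markers highest in Ctrlf 1 (0.815) and cKOf 3 (0.659). No member was flagged in Ctrlm, where Ctrlm 5 and Ctrlm 6 were the extremes for Fads1, Scd1, Scd2 and Elovl6.

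The genotype effect in males less that in females passed the interaction test of edgeR for Elovl6 (1.38 on the log2 scale) and Fads1 (0.58), and in the other lists for Degs2 (-1.60), Cyb5a (-0.95), Me1 (-0.74) and Acss2 (-0.58). For Elovl6 and Fads1 every cKOm kidney lay above every Ctrlm kidney while the female groups overlapped, and for Degs2, Cyb5a, Me1 and Acss2 every cKOm kidney lay below every Ctrlm kidney. All 6 tests share the 24 kidneys.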

How the results depend on the processing

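The number of members called was 5 in males and 4 to 6 over the fits that left out 1 kidney, and 3 without the hepatocyte-rich kidneys, a fit chosen after seeing the data with fewer samples. In females 0 were called, 0 to 1 over the fits without 1 kidney, and 1 (Fads1) with DESeq2 and with each sex fitted alone. For the difference of the genotype effect between the sexes 2 were called, 1 to 3 without 1 kidney, 1 with RLE normalization, with every gene with a count, with the replicate block and with the hepatocyte or adipocyte marker covariate, 0 without the hepatocyte-rich kidneys, and 3 with DESeq2 (Fads3 added) and without the adipocyte-rich kidneys (Scd1 added). The cause of these shifts was not tested. Elovl7 in females (-0.04) lay between -0.10 and 0.040 over the fits without 1 kidney, the only change of sign among the members' genotype differences within a sex. Over 240 repeats each, the members kept both direction and call in 230 in males and 234 in females. The numbers did not pair the kidneys (r of deviations from group means -0.199 to 0.120 over 36 same-number pairs, 3 over 0.1, 0 kidneys best with their own number). With the replicate block 5 members were called in males, 0 in females, 1 for the interaction and 3 between control sexes. Levels per kb by the longest transcript spanned 15.4-fold in Ctrlm, and the median r was 0.237 with a prior count of 0.5 too.

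With 6 kidneys a group, a member's SE was 0.08 to 0.29 on the log2 scale within a sex, and differences of 0.50 (Elovl2 in males) and 0.35 (Fads1 in females) missed the threshold. The counts reported leave the spread between kidneys, not depth, as the limit. The floor of 3 counts covers counting error only. Nothing beyond the replicate numbers says how kidneys were handled, so p values set group differences only against the spread between these samples.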
